A study of Homo sapiens with 4 samples.

Results

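The small ribosomal subunit, called 40S, is built from an 18S ribosomal RNA and a set of small proteins, most of whose genes are named RPS. It binds messenger RNA, scans for the start codon and holds the decoding centre, where codons meet transfer RNA. Its messenger RNAs are among the most abundant in growing cells. They usually begin with a terminal oligopyrimidine tract (TOP), a C followed by a run of C and T, through which growth signalling by the mTOR kinase sets their translation.

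The genes described here are those of the authors' deposited table with an RPS symbol of a coding gene, plus FAU and RACK1, with pseudogenes left out. This gave 34 of the 11597 listed genes, and all 34 are known coding genes on hg38, spread over 17 chromosomes. They include RPS27L, a close relative of RPS27. The cells were MOLM13, a human acute myeloid leukaemia line, and 2 groups of 2 libraries were compared at 3 days after lentiviral transduction. One group carried a cDNA of BTG2, an adaptor protein that brings the CCR4-NOT deadenylase to messenger RNA, and its genotype is labelled BTG2 OE. The other carried the empty vector, is titled Ctrl and has the genotype label WT. Both vectors expressed puromycin resistance and ZsGreen behind the EF1α promoter, selection or sorting is not mentioned in the labels, and the only line studied was MOLM13. The design text names mRNA stability as the question.

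The values are the authors' own comparison of BTG2 with empty vector, 1 row a gene. Each row gives a mean normalized count over the libraries, a log2 fold change with its standard error (SE) and an adjusted p, and a gene was called at an adjusted p under 0.05. Values of the single libraries were not analysed here, so depth is unknown and no spread between libraries can be shown. The labels do not say whether the libraries came from separate cultures, and the p-values may then measure technical spread alone. BTG2 itself stood at 5.01 (SE 0.09) on the log2 scale in the authors' deposited table. Of 10 myeloid markers 9 were listed, all but CD14, with mean counts of 71.6 to 6277, and of 11 markers of other cells KRT18 and PECAM1 were listed, at 421 and 65.7. Of the 9 myeloid markers MPO fell by 1.14 (SE 0.15), LYZ by 0.39 (SE 0.05) and CEBPA by 0.26 (SE 0.05), while FLT3 rose by 0.23 (SE 0.07), in the authors' deposited table. Their part in the results on small-subunit genes was not tested. In such bulk libraries fewer cells with a transcript and less of it per cell cannot be told apart.

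Most small-subunit genes differed little between the groups, and RPS3 stood far apart from the rest. By the authors' deposited table, 9 of the 34 genes rose, among them RPS3, RPS6, RPS16, RPS19, RPS27L, RPS9 and RPS24, where 3.64% of all listed genes did. Another 3 fell (RPS29, RPS7 and RPS25), where 4.47% of all listed genes did. The other 22 did not pass. The median log2 fold change of the 34 genes was 0.019, against 0.00026 for all listed genes. In 21 of them it lay within 0.1 of 0, and in 32 within 0.3.

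The share of called genes, 12 of 34, has to be read against how abundant these genes are. Their mean counts had a median of 54929, against 151 for all listed genes, and the median SE was 0.049 against 0.20. Of all 126 genes with a mean count of at least 10000, 47.6% were called, 33.3% higher and 14.3% lower. Of the 28 small-subunit genes at that level 10 (35.7%) were called, 8 higher and 2 lower. The share called was thus above the 8.11% of the whole table and below that of all genes with a mean count of at least 10000. Those 126 genes include the 28, and their median mean count was 33890, against 62200 for the 28. Of the 64 that encode no cytosolic ribosomal protein, 56.25% were called, at a median mean count of 16981. The level of 10000 was chosen after the data were seen. No test of these differences was made.

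**Figure D1:**
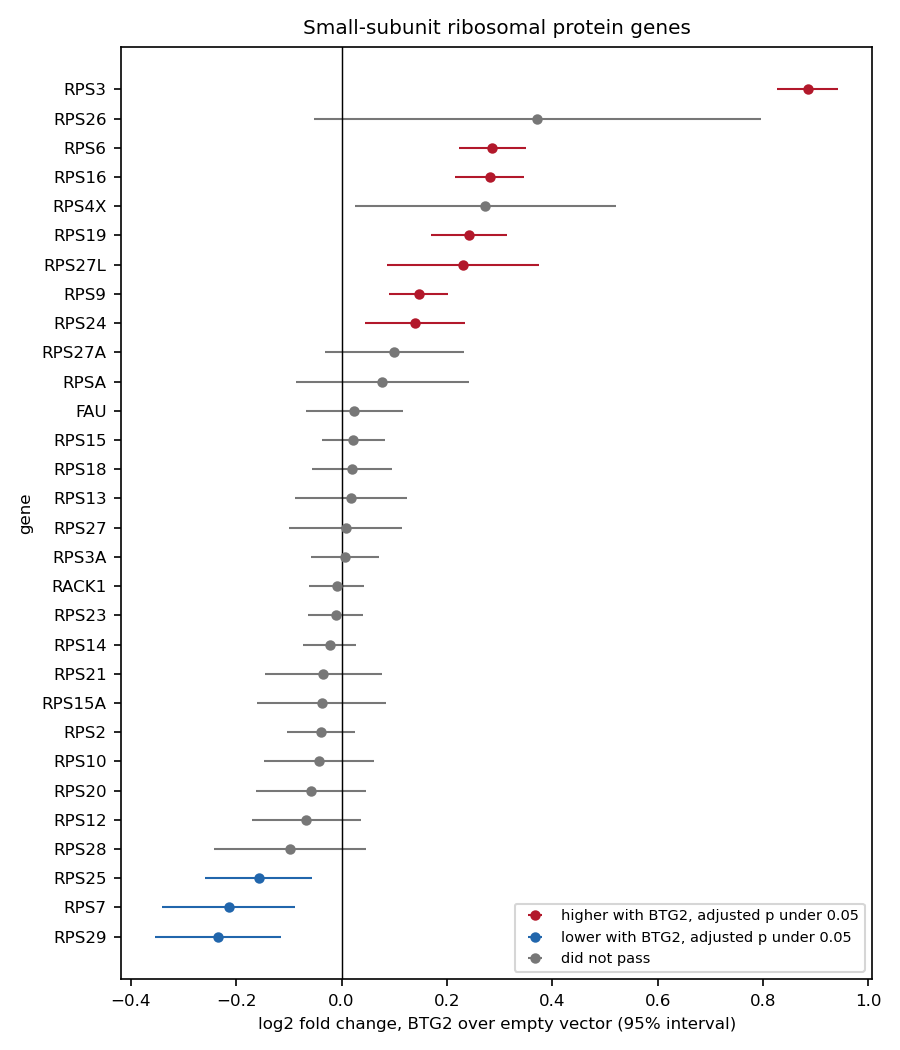
Log2 fold change of 30 of the 34 small-subunit genes, BTG2 over empty vector, with 95% intervals from the authors' standard errors; red genes rose, blue genes fell and grey genes did not pass. RPS3 lies alone at 0.89, most other genes lie within 0.3 of 0, and RPS29, RPS7 and RPS25 form the lower end.

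**Figure D2:**
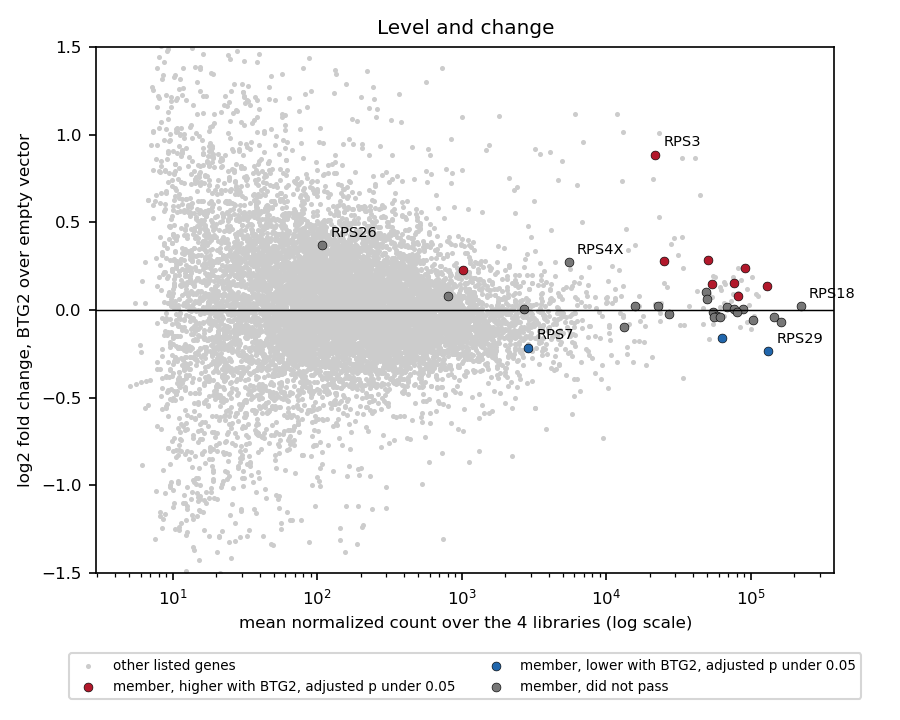
Mean normalized count over the 4 libraries (log axis) against log2 fold change for all listed genes in grey and the 34 small-subunit genes in colour; 138 genes beyond 1.5 in size are not shown. Most of the small-subunit genes sit at the right end, above a mean count of 10000, while RPS26 lies at 108.

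RPS3 sits in the head of the subunit at the channel where messenger RNA enters, and it also acts in the response to collided ribosomes. As listed in the authors' deposited table, its log2 fold change of 0.89 (SE 0.03, adjusted p = 8.98e-195) is a rise of 84.7%. Only BTG2 had a larger test statistic among the 11597 genes. The mean count of RPS3 was 21793 in the authors' deposited table, and with the fold change this mean implies 15311 normalized counts in empty vector and 28276 in BTG2. Such implied levels are computed here, assume that the mean is taken over 2 libraries of each group, and carry no spread. RPS3 lies on chromosome 11 from 75399486 to 75422280, plus strand, and no pseudogene row in the table was paired with it.

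After RPS3, the lowest adjusted p-values among the rises were those of RPS6, RPS16, RPS19 and RPS9. In the authors' deposited table, RPS6, the classical substrate of the S6 kinases, rose by 0.29 (SE 0.03, adjusted p = 2.03e-16), from an implied 45819 to 55866 normalized counts. By the authors' deposited table, RPS16, a head protein whose tail reaches towards the transfer RNA, rose by 0.28 (SE 0.03, adjusted p = 1.04e-14), from an implied 22719 to 27608. As listed in the authors' deposited table, RPS19, the gene most often mutated in Diamond-Blackfan anaemia, rose by 0.24 (SE 0.04, adjusted p = 4.87e-09), from an implied 83599 to 98890. In the authors' deposited table, RPS9, a body protein that binds early in assembly, rose by 0.15 (SE 0.03, adjusted p = 1.56e-05).

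Other rises lay nearer to the threshold of the test. By the authors' deposited table, RPS27L stood at 0.23 (SE 0.07, adjusted p = 0.0266) and RPS24 at 0.14 (SE 0.05, adjusted p = 0.0471).

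Transcript levels of 3 genes were lower with BTG2. As listed in the authors' deposited table, RPS29, a small zinc-binding head protein, fell by 0.23 on the log2 scale (SE 0.06, adjusted p = 0.00281), from an implied 142508 to 121129 normalized counts. By the authors' deposited table, RPS7, which lies on the body and is known to bind MDM2, fell by 0.21 (SE 0.06, adjusted p = 0.0152). With the rows of its pseudogene copies added, described below, the joint value was 0.0065. As listed in the authors' deposited table, RPS25, a head protein needed for translation from several viral internal ribosome entry sites, fell by 0.16 (SE 0.05, adjusted p = 0.0331). With fold changes recentred on the median abundant gene, RPS25 did not pass.

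In counts rather than ratios, the implied gains were larger than the losses, but the share of these genes in the whole table hardly differed. The 34 genes made up 20.3% of all mean counts of the table, and the implied share was 20.3% in empty vector and 20.2% in BTG2. Summed over the 9 genes that rose, the implied gain was 74178 normalized counts. The 3 genes that fell lost 28662, of which RPS29 alone accounted for 21379, and the genes that did not pass lost a net 10616. RPS19 had the largest implied gain, 15291, ahead of RPS3 with 12965 and RPS24 with 12540.

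**Figure D3:**
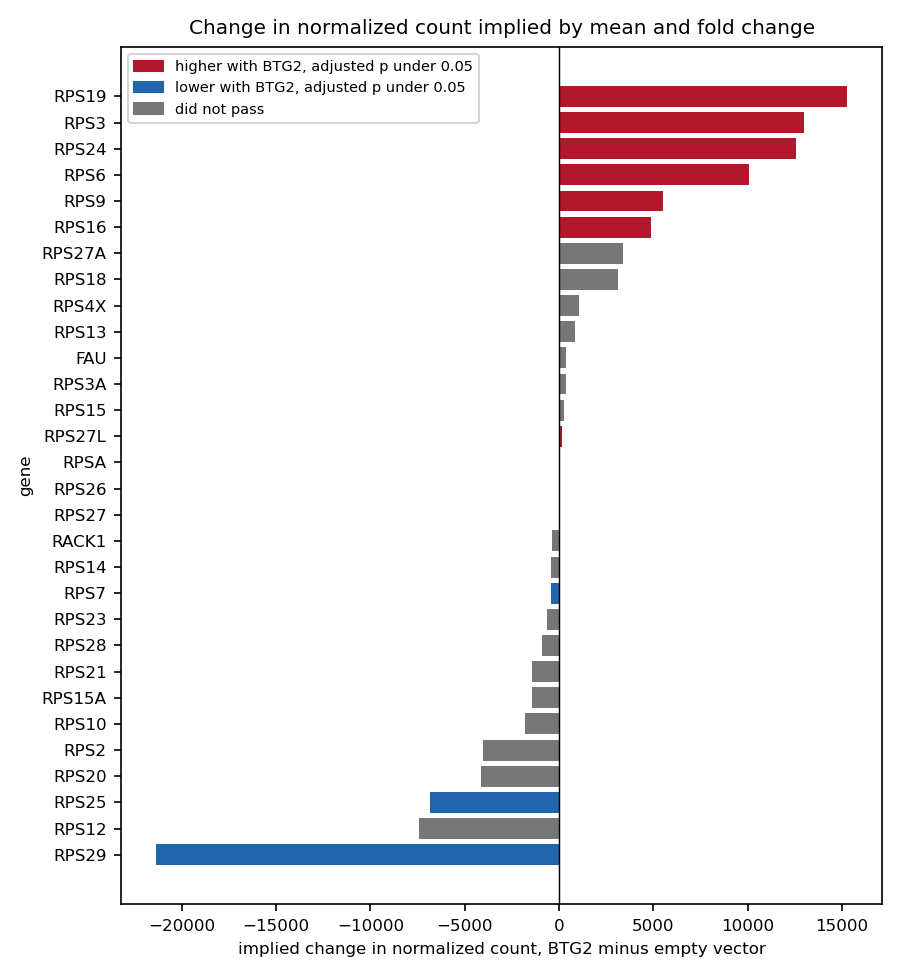
Implied change in normalized count of 30 of the 34 small-subunit genes, BTG2 minus empty vector computed from the authors' mean and fold change, with no error; colours as called. RPS19, RPS3 and RPS24 have the largest gains and RPS29 the largest loss, while RPS27L, RPSA, RPS26 and RPS27 lie close to 0.

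The genes that did not pass mostly had narrow intervals in their own rows, from standard errors that may hold technical spread alone. For 17 of these 22 the 95% interval of the log2 fold change lay within 0.2 of 0. RPS15 is among the 17, but with the row of its pseudogene copy added, described below, its joint value was 0.21. RPS18, the gene with the highest mean count of the whole table (221699), stood at 0.020, with an interval from -0.055 to 0.096, in the authors' deposited table. RPS14, the platform protein whose loss causes the anaemia of the 5q- syndrome, stood at -0.023, with an interval from -0.073 to 0.027, in the authors' deposited table. The decoding-centre protein RPS23 lay at -0.011 (-0.063 to 0.041) in the authors' deposited table. RPS12, the gene with the second highest count among these 34, lay at -0.067 (-0.17 to 0.037) in the authors' deposited table.

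The intervals of RPS26, RPS4X, RPS27A, RPSA and RPS28 reached beyond 0.2, and those of RPS26 and RPS4X were the widest. RPS26, a protein of the mRNA exit channel, had a mean count of 108 and a log2 fold change of 0.37 with an interval from -0.053 to 0.80 in the authors' deposited table. RPS4X, a body protein encoded on the X chromosome, stood at 0.27 (0.025 to 0.52, adjusted p = 0.210) at a mean count of 5503 in the authors' deposited table. Its SE of 0.13 was larger than that of 98.3% of the 410 genes with mean counts between 2000 and 10000, whose median SE was 0.052.

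In the genes' own rows, rises and falls were found in the head and in the body of the subunit, and among its older and its younger proteins. In the head 4 of 15 genes rose, RPS3, RPS16 and RPS19 among them, and 2 fell (RPS29 and RPS25), with a median of 0.020. In the body and platform 5 of 19 rose, RPS6, RPS9, RPS27L and RPS24 among them, and RPS7 fell, with a median of 0.018. RPS7 was the only fall there, and its joint value with pseudogene copies, described below, was 0.0065. Among the 15 proteins shared with bacteria 3 rose and 1 fell, and among the 19 found only in archaea and eukaryotes or in eukaryotes alone 6 rose and 2 fell, with medians of 0.018 and 0.024. The share called was 40.0% in the head and 31.6% in the body and platform. It was 26.7% in the proteins shared with bacteria and 42.1% in the others. Of all listed genes 8.11% were called, against 47.6% of those with a mean count of at least 10000. The differences between these groups were not tested.

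At the mRNA entry channel RPS3 and RPS9 rose, while RPS2 stood at -0.040 and FAU at 0.024, neither past the threshold, in the authors' deposited table. At the exit channel RPS14, RPS26 and RPS28 all missed it, and RPS28 stood at -0.099 (SE 0.07) in the authors' deposited table. Both genes that encode a fusion with a ubiquitin or ubiquitin-like protein also missed it, RPS27A at 0.10 (SE 0.07) and FAU at 0.024 (SE 0.05) in the authors' deposited table. RACK1, the scaffold of the head that recruits kinases and collision sensors, stood at -0.0095 (SE 0.03) in the authors' deposited table. Of 10 Diamond-Blackfan anaemia genes 3 rose, RPS19 and RPS24 among them, and RPS29 and RPS7 fell, with a median of -0.015.

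RPS27 and RPS27L encode near-identical proteins, and RPS27L is known as a target of p53. The predicted proteins, translated here from GENCODE reference transcripts, share 81 of 84 residues, while the coding sequences share 77.8% of 252 bases. RPS27L rose (0.23, SE 0.07) at a mean count of 1018, whereas RPS27 stood at 0.0076 (SE 0.05, adjusted p = 0.986) at 2689, in the authors' deposited table. The difference between them was not tested.

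Levels in the genes' own rows differed widely even per coding length. RPS29 had 784636 mean normalized counts per kb of coding sequence, the median gene 100738, RPS27 10672, RPS7 4926, RPS27L 4041, RPSA 915 and RPS26 312. These values leave out pseudogene copies, described below, so some low ones partly reflect how counts were split between rows. Copies held 97.1% of the joint count of RPS26, 79.7% for RPS7 and 27.1% for RPS27, and none was paired with RPS27L or RPSA. Whether counts grow with transcript length here is not known, since the series text names long reads and the library protocol short ones. Across the 34 genes log2 fold change had a Spearman rho of -0.34 with mean count and of 0.27 with coding length, given as a description over genes that share the same libraries.

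Transcription starts were compared because most of these messenger RNAs are TOP mRNAs. Windows of 30 bases, 10 before and 20 from the RefSeq start (GRCh38.p14), were found for 27 of the 34 genes. A start was counted as pyrimidine-led when the transcript strand began there with a C followed by at least 4 more C or T. Taking any of a gene's listed starts, this held for 20 of the 27 genes (74.1%), against 5.14% of 27305 genes with a RefSeq start. The runs were 6 to 14 bases long. RPS19 has another listed start with no run, which is not shown. The windows of called genes are given 5′ to 3′ on the strand of the gene, with the pyrimidine run from the start base in capitals. The first 7 have such a run, and the last 3, RPS7, RPS29 and RPS27L, have none at the listed start.
RPS3 (chr11:75399508-75399537, plus strand): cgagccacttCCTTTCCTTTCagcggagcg
RPS6 (chr9:19380217-19380246, minus strand): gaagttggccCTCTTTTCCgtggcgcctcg
RPS16 (chr19:39435930-39435959, minus strand): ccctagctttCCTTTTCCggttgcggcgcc
RPS19 (chr19:41860245-41860274, plus strand): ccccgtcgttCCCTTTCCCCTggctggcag
RPS9 (chr19:54200848-54200877, plus strand): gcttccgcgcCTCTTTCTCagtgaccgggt
RPS24 (chr10:78033853-78033882, plus strand): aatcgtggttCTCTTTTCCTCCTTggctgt
RPS25 (chr11:119018324-119018353, minus strand): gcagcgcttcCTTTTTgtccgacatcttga
RPS7 (chr2:3575250-3575279, plus strand): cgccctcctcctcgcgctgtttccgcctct
RPS29 (chr14:49598691-49598720, minus strand): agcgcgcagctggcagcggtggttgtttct
RPS27L (chr15:63157458-63157487, minus strand): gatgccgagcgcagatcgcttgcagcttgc

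Rises and falls were found among genes with and without the run. Of the 20 genes with it, 6 rose and RPS25 fell, with a median log2 fold change of 0.019. Of the 7 without it, RPS27L rose and RPS7 and RPS29 fell, with a median of 0.022. Of all listed genes 3.64% rose and 4.47% fell. Of those with a mean count of at least 10000, 47.6% were called. A listed start can differ by a few bases from the one used in these cells, so the absence of a run says only that these letters do not stand at that base. The difference between the groups was not tested.

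Processed pseudogenes are intronless copies of messenger RNAs, and ribosomal protein genes have more of them than most. The table lists such copies of several small-subunit genes with counts of their own. By alignment of GENCODE transcripts, 50 pseudogene rows of the table were closest to 1 of 23 small-subunit genes, with a median identity of 97.3%. For 3 genes the copies held more of the mean count than the coding gene did. These were RPS26 with 97.1% of the joint count in copies, RPS7 with 79.7% and RPS15 with 66.5%. RPS27 followed with 27.1% and RPS27A with 12.3%, and for the other 18 genes the share was under 10%. Reads of a gene and of a near-identical copy cannot be told apart here, so the rows of these genes are uncertain.

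Adding the copies changed the picture for some of these genes. RPS7 fell in its own row, but with RPS7P1 (mean count 10966, log2 fold change 0.038, 99.1% identical) and 2 lesser copies, the joint log2 fold change from the authors' deposited table was 0.0065. RPS15 missed the threshold in its own row at 0.022, but its copy RPS15P4 was called at 0.31 (SE 0.05) and the joint value was 0.21, from the authors' deposited table. For RPS26 the joint value was 0.10, against 0.37 in its own row, since a copy identical to its transcript over the whole aligned length, AC004057.1, had a mean count of 3540 at 0.090 in the authors' deposited table. That copy is named because of its share, seen in the data. For RPS3, RPS6, RPS16 and RPS9 no copy was listed. Joint values come from implied levels and carry no test.

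Of these 50 copies, 21 rose and 0 fell in the authors' test, 27 had an unadjusted p under 0.05, and the median log2 fold change was 0.75. Of all listed genes 3.64% rose and 4.47% fell. Of 147 pseudogenes paired with other coding genes 25 rose and 5 fell, with a median of 0.13. In 44 of the 50 the log2 fold change lay above that of the coding gene. However, 25 of the 50 had mean counts under 100, with a median SE of 0.64, and 2 of these 25 rose. Of the 21 that rose, 18 belong to coding genes that did not pass, as do most of the 50 copies. RPS18P5 rose by 1.02 (SE 0.13), RPS3AP6 by 0.71 (SE 0.08) and RPS27AP16 by 0.50 (SE 0.07) in the authors' deposited table. AC024293.1, which is 99.6% identical to RPS10, rose by 0.85 (SE 0.04) at a mean count of 4927, while RPS10 stood at -0.042 (SE 0.05) at 61530, in the authors' deposited table. The difference between copies and coding genes was not tested.

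**Figure D4:**
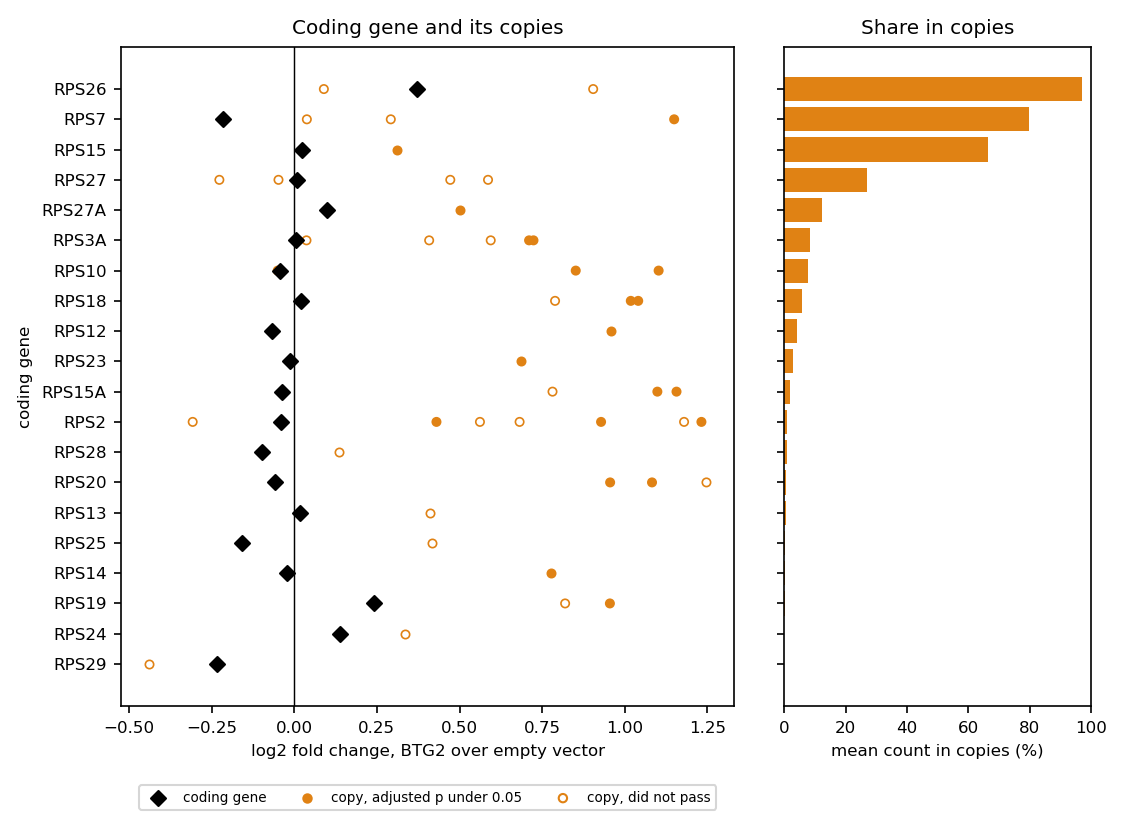
Left, log2 fold change (BTG2 over empty vector) of 20 of the 23 small-subunit genes (black diamonds) and of their pseudogene copies (orange, filled where called); right, the share of the joint mean count listed under copies, in percent. Most copies lie to the right of their coding gene, and RPS26, RPS7 and RPS15 have the largest shares of the joint count in copies.

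Genes that work with the small subunit were called at shares of 2.94% to 16.1% by list, where 8.11% of all listed genes were, and these differences were not tested. Of 68 factors that assemble it, FBL, the methyltransferase of box C/D small nucleolar particles, rose by 0.16 (SE 0.03) and IMP4, a processome protein, by 0.59 (SE 0.14) in the authors' deposited table. None of the 68 fell, so that 2.94% were called, and 8 had an unadjusted p under 0.05 in the authors' test. Of 31 initiation factors that act on it 16.1% were called, as EIF1 (0.29) and EIF2S3 (0.32) rose and EIF3C (-0.44), EIF4H (-0.22) and DENR (-0.25) fell in the authors' deposited table. Of 20 quality control genes 5.0% were called, as SERBP1, which clamps idle ribosomes, rose by 0.19 (SE 0.05) and the ligase gene ZNF598 stood at -0.21 (SE 0.12), not past the threshold, in the authors' deposited table. Of 25 listed genes of TOP and S6 kinase signalling 8.0% were called, as the mTORC1 inhibitor DDIT4 fell by 0.31 (SE 0.03) and the translation repressor EIF4EBP1 by 0.25 (SE 0.04), and 0 rose, in the authors' deposited table. LARP1, which binds the TOP tract, stood at 0.19 (SE 0.08, adjusted p = 0.160), MTOR at -0.24 (SE 0.22), RPS6KB1 at 0.18 (SE 0.16) and RPS6KB2 at -0.094 (SE 0.13), none past the threshold, in the authors' deposited table.

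Among the ribosomal protein families, the median of the small subunit lay between that of the large subunit and that of the mitochondrial small subunit. Of 47 large-subunit genes 15 rose and RPL5 fell, with a median of 0.081, and the share called was 34.0% against 35.3% in the small subunit. Of 29 small-subunit proteins of the mitochondrial ribosome MRPS27 and MRPS5 rose and 0 fell, with a median of -0.021 at a median mean count of 555. That is 6.90% called, where 8.11% of all listed genes were. The largest log2 fold change in the small subunit was the 0.89 of RPS3. In the large one it was 1.05, in a gene that did not pass. Among the called large-subunit genes the largest was the 0.46 of RPL10 (SE 0.04). These are descriptions, and the differences between families were not tested.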

How the data were processed

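Poly(A) RNA of 4 MOLM13 libraries was measured, 2 with a BTG2 cDNA and 2 with empty vector, grouped by sample titles. The aligner minimap2 and the hg38 build are named, per the submitters' processing notes. The labels' protocols give a directional short-read kit, whereas the series text speaks of long reads. The sources used here do not name the program, scaling, annotation and filter behind the deposited table.

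Per the file headers, the mean normalized count is a signal pooled over all libraries. The authors deposited fold changes with standard errors as log2 values. The deposited statistic is a score, fold change over standard error (largest difference 2.72e-07). Adjusting the deposited p-value over all 11597 genes by Benjamini-Hochberg gave the deposited adjusted p-value within 1.48e-06. With no counts per library, no count test could be run, and the added test against a small change used the deposited values. Strand use in counting is not given, so overlapping genes are uncertain.

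The gene set, gene lists and tests were chosen with earlier results of these data known. Genes of the set may be named, except a few that are counted in the totals but not reported here. Of other lists, up to 5 called genes with the largest statistics are named, besides 6 regulators. Of copies, up to 5 by mean count and 5 by statistic are named. Intervals are at the 95% level from the authors' standard errors. Implied group levels solve the mean and fold change for 2 libraries a group. Pseudogenes were paired with GENCODE release 29 coding transcripts by BLAST 2.17.0 (at least 50% of the pseudogene, at least 80% identity). Of 34 pseudogene rows whose symbols name a small-subunit gene, 32 were paired with 1 of the genes described. Start windows came from RefSeq. The calling rule was tried on simulated fold changes with noise drawn from the deposited standard errors. That trial could not check those errors or the spread between libraries. Python 3.11.15, pandas 2.3.3 and scipy 1.17.1 were used. Alternatives were other p limits and adjustments, a minimum change, a test against a small change, 2 recentrings and joint counts with copies.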

Additional observations from a re-analysis of the deposited data

How the results depend on the processing

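The 9 rises and 3 falls stayed as counts at an adjusted p of 0.1, with adjustment over the more abundant genes alone (mean count not below the median) and with recentring on the median gene, and all 12 genes were shared with the authors' calls in each. Under these 3 rules 4.79%, 6.91% and 3.64% of all genes tested rose and 5.75%, 8.98% and 4.48% fell, in that order. Stricter rules left fewer. At an adjusted p of 0.01 there were 5 rises and 1 fall, and with a Bonferroni adjustment 5 and 0. With a minimum absolute log2 fold change of 0.2 there were 5 and 2, and in a test against an absolute change of 0.1 4 and 0. Of all listed genes 2.42%, 1.13%, 3.3% and 1.95% rose and 2.94%, 1.56%, 4.06% and 2.07% fell under these stricter rules, in that order. At an unadjusted p under 0.05 the authors' test gave 11 and 3, where 2036 of all 11597 listed genes passed. RPS3, RPS6, RPS16 and RPS19 rose under every one of these rules. Recentring on the median abundant gene, at -0.027, gave 10 rises and 2 falls, as 1 more gene passed as higher and RPS25 no longer passed. Of all listed genes 4.31% rose and 3.73% fell with this recentring. The same recentring turned 3 genes that had not passed from below to above 0, RACK1 to 0.017, RPS14 to 0.0040 and RPS23 to 0.015. Leaving out RPS27L, RACK1 and FAU gave 8 rises and 3 falls. The median of the set ranged from 0.0073 (weighted by mean count) to 0.046 over the alternatives. With copies added, RPS7 turned from -0.21 to 0.0065, both with named copies and with those paired by alignment, the latter chosen after seeing the data. No paired analysis was possible because the table holds no values per library, and for the same reason no library could be left out.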

Other observations

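Small nucleolar RNAs, which guide modification of ribosomal RNA, are often encoded in introns of ribosomal protein genes. By GENCODE, 10 of the 34 small-subunit genes hold such RNA genes on their own strand, 21 in all, among them RPS3, RPS12, RPS2 and RACK1. None of the 21 has a row of its own in the table analysed here. Of these 10 host genes 2 rose, RPS3 among them, and 0 fell, with 2 at an unadjusted p under 0.05 in the authors' test and a median log2 fold change of 0.0069. Of the other 24 genes 7 rose and 3 fell, with a median of 0.023, and the difference was not tested.

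Rows of other genes overlapped 12 of the small-subunit genes, 12 rows on the opposite strand and 4 on the same one. Of these 16 rows 3 were called, where 8.11% of all listed genes were. NDUFA7, a complex I subunit gene opposite RPS28, stood at 0.62 (SE 0.12), RN7SL1, an RNA of the signal recognition particle opposite RPS29, at 0.68 (SE 0.24), and CTC-338M12.4, opposite RACK1, at 0.91 (SE 0.28) in the authors' deposited table. They are named because they were called, after their values were seen. Of the genes they overlap, RPS29 fell, while RPS28 at -0.099 (SE 0.07) and RACK1 at -0.0095 (SE 0.03) did not pass, in the authors' deposited table. The readthrough gene RPS10-NUDT3 had a mean count of 21.6 and an SE of 4.57 in the authors' deposited table.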
